A study of Neurospora crassa with 18 samples.

Results

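ASH1 is 1 of 2 enzymes of Neurospora crassa that methylate lysine 36 of histone H3 (H3K36). The ash1(Y888F) strain carries a change of a SET-domain tyrosine that is meant to leave the protein without catalytic activity. Its RNA was compared here with RNA of a wild type, gene by gene, in 4 of the 7 RNA libraries of the series that have a count file of their own. The members were chosen by strain number alone: 2 libraries of strain N4878, ash1(Y888F), and 2 libraries of strain N623, the WT. N4878 is mat A with a his-3 mutation and a FLAG-tagged ash1(Y888F) allele linked to a hygromycin resistance cassette, and the mutant is represented by this 1 strain, which grows poorly. N623 is mat A and his-3 as well, so the histidine mutation is common to both sides, while the tag and the cassette are in the mutant only. All 4 libraries were made from poly-A+ RNA of germinated conidia, the asexual spores of this fungus after they have begun to grow out. No treatment or time series was applied.

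As background, methylated H3K36 is laid down along transcribed genes by SET-2, which travels with RNA polymerase II, and independently of transcription by ASH1. H3K27me2/3, the mark of Polycomb repressive complex 2 (PRC2), covers domains of silent genes, many of them near chromosome ends. Many silent genes of a vegetative Neurospora culture are genes of mating, fruiting body development, plant biomass breakdown and secondary metabolism, which this fungus uses at other stages or on other food.

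The 2 ash1(Y888F) libraries held 7150417 and 6547197 counts in genes, and the 2 WT libraries 7469922 and 8103382. Reads assigned to no gene were 11.0 and 11.4% in ash1(Y888F), against 8.04 and 7.01% in WT. Spearman's rho between replicates was 0.959 for the mutant and 0.985 for WT across genes, which are not independent replicates, so the mutant pair was the more variable. The dates in the file names are different for each mutant library, and neither is the date of the WT pair. What the date marks is not stated, and date and genotype cannot be told apart. The sources call the replicates biological but do not say more about the cultures.

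The ash1 transcript itself (NCU01932, linkage group I) was present at like levels, as a point mutation allows: 556 and 825 counts in ash1(Y888F), against 668 and 675 in WT. The transcript level therefore does not check the mutant allele. The transcript of set-2, the other H3K36 methyltransferase, had 140 and 113 counts in ash1(Y888F), against 120 and 153 in WT. The other strain checks, his-3 (3365 and 2914 against 2785 and 2375) and mus-52 (277 and 483 against 278 and 347), were not called either. mat A-1, a gene of the labelled mating type, was transcribed in each library of both strains, with 239 and 486 counts in ash1(Y888F) and 13 and 15 in WT. Genes of the opposite mating-type locus were not examined, so the absence of that type was not tested.

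Markers of growing hyphae had similar levels on both sides. hex-1, which forms the Woronin body that plugs septal pores, chs-1 and chs-3, which make chitin, and pma-1, the plasma membrane proton pump, summed to 8456 and 6530 CPM (counts scaled to the size of the library) in ash1(Y888F), against 7461 and 8911 CPM in WT, and none of the 4 was called (edgeR; 0 at an unadjusted p under 0.05 and 0 by DESeq2). Conidial markers con-6, con-8, con-10, con-13 and eas summed to 154 and 162 CPM, against 98.8 and 76.1 CPM, but did not move together. Of the 4 tested, con-6 (68.8 and 12.1 CPM against 5.87 and 4.86) and con-10 were called higher. eas was called lower (11.5 and 10.8 CPM against 47.2 and 58.0), and 1 had no call. Of sexual tissue markers, asd-1, asd-3 and poi-2 rose and asd-4 and fsd-1 had no call, with a summed level of 389 and 819 CPM in ash1(Y888F), against 163 and 127 CPM in WT. The part of other cell types in the results below was not tested, and in bulk RNA more cells of a type and more RNA per cell cannot be told apart.

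Most changes in ash1(Y888F) were increases. Of 9730 genes, 8125 had enough counts to be tested, and 1053 of them (13%) were higher and 273 (3.36%) lower in the mutant than in WT, 16.3% in all, at a Benjamini-Hochberg adjusted p under 0.1 in edgeR's quasi-likelihood test. The median log2 fold change was 3.41 over the higher genes and -1.26 over the lower genes, against 0.01 over all genes tested. A change of at least 16-fold (log2 of 4 or more) was fitted for 440 of the higher genes and 5 of the lower genes. The groups did not overlap for any called gene in either direction. That is no added support, because a small p favours such genes and non-overlap over all genes was not counted. Without the first ash1(Y888F) library the counts were 1314 higher and 918 lower, and without the second 1115 and 461. Without the first WT library they were 778 and 107, and without the second 756 and 87. In all 4 of these fits 589 genes were called higher and 49 lower.

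Higher genes ranged from silent to well transcribed in WT. Of the 1053, 126 had 0 counts in both WT libraries, 206 others had 1 to 3 counts in the sum of both, and 426 had over 20. Genes with at least 10 counts numbered 8129 and 8225 in the ash1(Y888F) libraries, against 7443 and 7408 in the slightly deeper WT libraries. There were 120 genes with 0 counts in WT and at least 10 in each mutant library, and 2 genes with 0 counts in the mutant and at least 10 in each WT library.

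The increases lay largely in ASH1-marked genes, the 1970 genes that the authors listed from H3K36me2 ChIP-seq in a strain without SET-2. Among all 1970, 681 (34.6%) were called higher and 17 (0.863%) lower, against 372 (4.79%) and 256 (3.30%) of the 7760 ASH1-unmarked genes. Genes silent in WT could not be called lower, so the lower shares are also given by level below. Only 1167 marked genes could be tested, and 491 of these had under 10 counts in both WT libraries, so that they passed the low-count filter through the mutant. The count of detected genes, which uses no such filter, was 1194 and 1240 marked genes with at least 10 counts in ash1(Y888F), against 637 and 611 in WT. For unmarked genes it was 6935 and 6985 in ash1(Y888F), against 6806 and 6797 in WT.

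H3K27me2/3, as listed by the authors from WT, divides the genes further. Of 600 genes with both marks, 142 (23.7%) were higher and 4 lower, with a median log2 fold change of 3.38 over the 213 tested. Of 1370 genes with the ASH1 mark alone, 539 (39.3%) were higher and 13 lower, with a median of 2.13 over 954 tested. Of those tested, 112 with both marks and 379 with the ASH1 mark alone had under 10 counts in both WT libraries. These passed the low-count filter through the mutant, so that both medians rest partly on that selection and were not compared. Genes with H3K27me2/3 but no ASH1 mark were called in both directions: 32 of 236 (13.6%) were higher and 8 lower, and the median over 154 tested was 0.37. Of 7524 genes with neither mark, 340 (4.52%) were higher and 248 lower, and the median was -0.07. The counts of higher genes in the classes with the ASH1 mark stayed within 1.5 times of these values without any 1 library. Their few lower genes numbered 5 and 4 for the ASH1 mark alone without the first and the second WT library, and for both marks 2 without the first WT library and 9 without the second ash1(Y888F) library. The genes with neither mark did not: without the first and the second ash1(Y888F) library 877 and 412 of them were lower, and without the first and the second WT library 97 and 75. Their higher genes numbered 552 without the first ash1(Y888F) library, and 200 and 179 without the first and the second WT library. Genes with H3K27me2/3 alone numbered 17 higher and 3 lower without the first WT library, 20 and 4 without the second, and 18 and 21 lower without the first and the second ash1(Y888F) library.

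**Figure D1:**
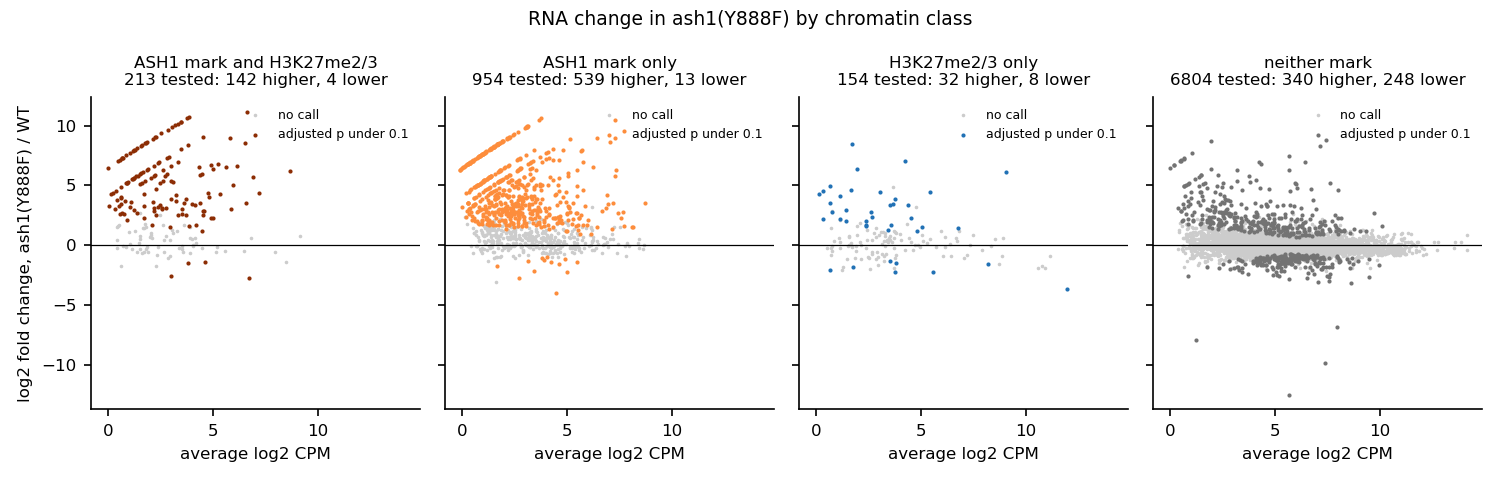
Log2 fold change of ash1(Y888F) over WT (vertical) against average log2 CPM over the 4 libraries (horizontal) for each gene tested, in 1 panel per chromatin class, with called genes in colour. The straight diagonal bands are genes with 0 or 1 count in WT, and called genes of the 2 classes with the ASH1 mark lie nearly all above 0 (142 higher and 4 lower, 539 higher and 13 lower).

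Measured as a share of all counts, the marked genes stayed a small part of the transcriptome. Genes with both marks took 0.595 and 0.727% of counts in ash1(Y888F), against 0.215 and 0.238% in WT. Those with the ASH1 mark alone took 2.32 and 3.17%, against 1.22 and 0.981%. In both classes each mutant library lay above each WT library. Genes with H3K27me2/3 alone took 0.578 and 1.80%, against 1.34 and 3.23%, and here the groups overlapped. The most abundant gene of that class, NCU10040, made up 0.0316 and 0.0972% of counts in ash1(Y888F), against 0.394 and 1.01% in WT.

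**Figure D2:**
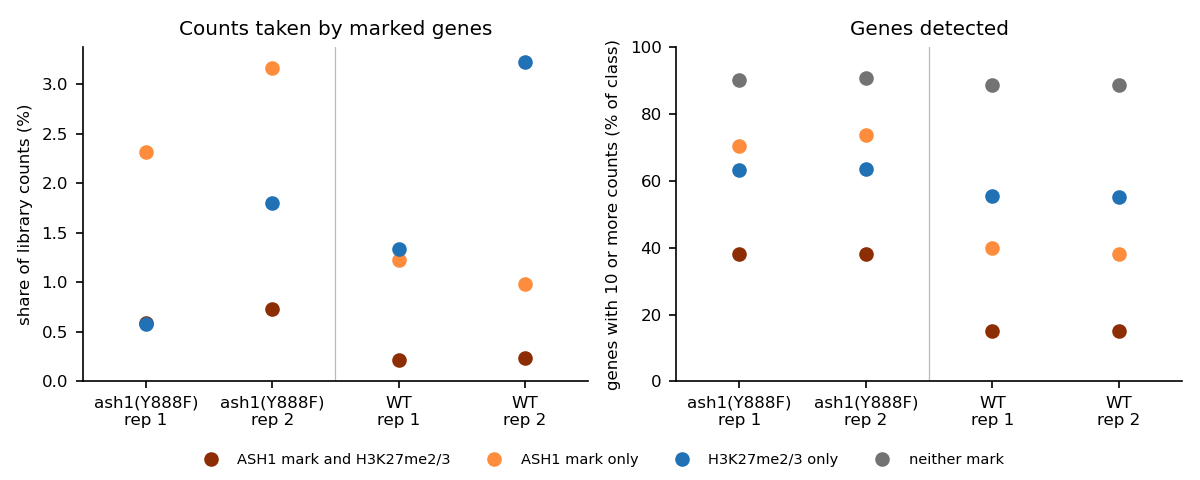
Left, share of a library's gene counts (%) taken by the 3 marked classes; right, genes with at least 10 counts as a percentage of all genes of the class; 1 point per class and library, ash1(Y888F) left of WT. Detected genes with both marks numbered 229 in each ash1(Y888F) library and 91 in each WT library.

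The share of genes that rose was read against a level that the comparison did not use, the CPM per kilobase (kb) of gene span in 1 library of N2930, the mus-52 deletion strain that is the parent of ash1(Y888F). Among ASH1-marked genes the share called higher was 25.0% of the 840 genes with no count in the parent library, 61.7% of 149 genes up to 0.1 CPM per kb, 55.2% of 221 genes from 0.1 to 0.3, 45.6% of 274 genes from 0.3 to 1 and 35.4% of 206 genes from 1 to 3. It was 23.0% of 187 genes from 3 to 10, 19.7% of 61 genes from 10 to 30 and 15.4% of 26 genes from 30 to 100, and 0 of the 6 genes above. ASH1-unmarked genes had lower shares in all but the top bin, which holds only those 6 marked genes: 4.94% of 466 genes with no count, 20.2% of 84, 20.7% of 227, 15.2% of 322, 15.1% of 536, 3.74% of 1524, 2.52% of 2496, 2.02% of 1433 and, above 100 CPM per kb, 0.893% of 672. Low genes without the mark therefore rose too, but at a smaller share of each bin. The share of all genes called lower was 1.62% from 1 to 3 CPM per kb, 3.21% from 3 to 10, 4.81% from 10 to 30, 4.18% from 30 to 100 and 2.95% above. For marked and unmarked genes it was 2.43 and 1.31% from 1 to 3, and 3.74 and 3.15% from 3 to 10. From 10 to 30 it was 6.56 and 4.77%, from 30 to 100 3.85 and 4.19%, and above 0 and 2.98%. The marked shares rest on at most 7 lower genes in a bin.

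**Figure D3:**
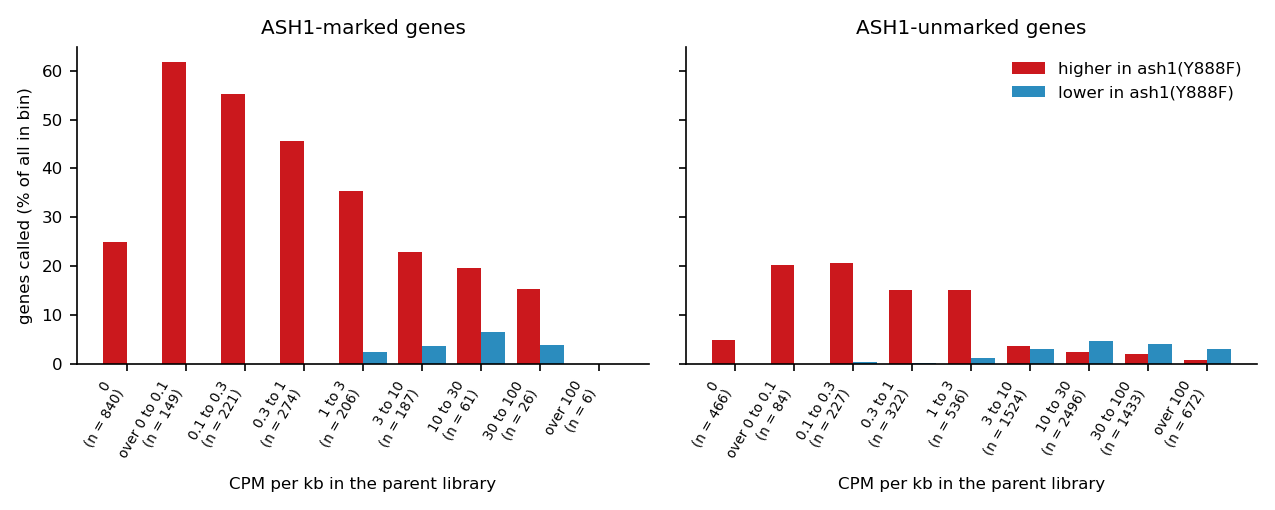
Percentage of all genes in a bin that were called higher or lower in ash1(Y888F), by level in the parent library (CPM per kb), for ASH1-marked genes (left panel) and ASH1-unmarked genes (right panel), with the number of genes per bin. The share of marked genes called higher was 61.7% at up to 0.1 CPM per kb and 15.4% at 30 to 100.

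The genes with the largest increases are nearly all unnamed loci, for which the annotation used gives no symbol. NCU06888 (linkage group VII, 666583 to 667654, both marks) had 146 and 271 counts in ash1(Y888F) and 0 and 0 in WT, at least 146-fold higher with a floor of 3 counts over the WT group (adjusted p = 0.00461). NCU05470 (II, 1688554 to 1689417, both marks) had 174 and 211 counts, against 0 and 0, at least 135-fold higher (adjusted p = 0.00318). NCU04616 (V, 1483737 to 1486334, ASH1 mark only) had 195 and 184 counts, against 0 and 0, at least 133-fold higher (adjusted p = 0.00326). Each was silent at this depth in WT and readily detected in both mutant libraries. NCU08615 (I, 9610349 to 9612668, ASH1 mark only) and NCU07152 (V, 6411400 to 6412219, both marks) followed, at least 122- and 109-fold higher. Another 8 loci with 0 counts in WT, NCU04710, NCU05191, NCU17203, NCU01532, NCU00529, NCU06263, NCU05190 and NCU04706, were at least 79.8- to 108-fold higher. NCU06938 (VII, 835356 to 836493, ASH1 mark only) was abundant in the mutant, with 2318 and 2120 counts against 3 and 0, a ratio of 1554 with an exact 95% counting interval of 531 to 7537. NCU08818 (IV, 5142229 to 5142904, both marks) had 159 and 2776 counts against 1 and 0. Its 2 mutant libraries were so far apart that the size of its increase is uncertain. All of these calls held without any 1 library.

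Other genes stood out for small p-values within their class. NCU09604 (II, 73202 to 74342, both marks) had 1852 and 1496 counts in ash1(Y888F) and 25 and 42 in WT. Its log2 fold change was 5.74 ± 0.39 (SE, n = 2 libraries each, as for all fold changes below; adjusted p = 0.00205). NCU03468 (II, 590421 to 592425, ASH1 mark only) had 919 and 1207 counts, against 10 and 13, and a log2 fold change of 6.58 ± 0.31 (adjusted p = 0.00184). Some genes outside the marked lists rose as strongly. NCU07789 (V, 280159 to 282370, neither mark) had 798 and 596 counts, against 4 and 4, and NCU08969 (V, 5868146 to 5869980, neither mark) 1382 and 995, against 9 and 11, with log2 fold changes of 7.49 ± 0.42 and 6.97 ± 0.41. With H3K27me2/3 alone, NCU17053 (V, 6409845 to 6410837) had 400 and 783 counts, against 21 and 34 (log2 fold change 4.47 ± 0.41), while NCU05089 (VI, 3770926 to 3772990) fell, with 104 and 133 counts against 486 and 698 (-2.24 ± 0.26).

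Many higher genes lay beside another higher gene. In the order of genes along the linkage groups, 475 of the 1053 (45.1%) were in 189 runs of at least 2 adjacent higher genes, and 11 runs held 5 or more. Of the 273 lower genes, 45 (16.5%) were in 21 such runs, none longer than 3. These are counts only, since how often neighbours share marks was not modelled. Lower genes are also fewer, so that fewer of them would be adjacent by number alone, and the 2 shares were not compared. A run of 7 on linkage group II (1683362 to 1696830, 13.5 kb) comprised NCU05467, NCU05469, NCU05470, NCU05472, NCU16538, NCU16539 and NCU16540. All 7 carry the ASH1 mark and 3 of them H3K27me2/3 too. NCU16538, the most abundant, had 2415 and 1297 counts in ash1(Y888F), against 3 and 7 in WT, and NCU05472 had 427 and 578, against 1 and 1. NCU16540, the weakest, had 36 and 52, against 0 and 1. All 7 were nearly silent in WT and detected in both mutant libraries.

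The other run of 7 lies on linkage group IV (5129322 to 5157522, 28.2 kb) and was uneven. At its first edge NCU08821 (neither mark) had 595 and 1061 counts in ash1(Y888F), against 378 and 374 in WT, and NCU08820 (ASH1 mark only) 2484 and 3474, against 1070 and 1020. These 2 were active in WT and rose by log2 fold changes of 1.19 ± 0.29 and 1.57 ± 0.28. Toward the other edge NCU08814, NCU08813 and NCU08812, with both marks, had 38 and 95, 19 and 38, and 62 and 98 counts, against 0 and 0, 0 and 1, and 0 and 0. Higher genes were found on every linkage group, at shares of all its genes from 7.65% of 1255 on III and 8.22% of 2347 on I to 13.5% of 988 on VI and 16.2% of 1047 on VII.

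A deposited table holds, for 592 ASH1-marked genes, the log2 ratio of H3K27me2/3 coverage in ash1(Y888F) over WT around the gene's start. It rests on 1 ChIP-seq sample a side and so has no error. RNA rose most often where this ratio was low. Of the 197 genes with the lowest ratios (-2.97 to -0.66), 95 were higher and 1 lower. Of the 197 in the middle (-0.66 to 0.31) 30 were higher, and of the 198 with the highest ratios (0.31 to 1.81) 12 were higher and 2 lower. Of 67 genes with a ratio under -2, a 4-fold loss, 31 were higher, and of the 25 with a ratio over 1, 2 were. With no filter applied, genes with at least 10 counts among the lowest 197 numbered 119 and 119 in ash1(Y888F) and 26 and 26 in WT, and among the highest 198 they numbered 33 and 33, against 19 and 17.

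**Figure D4:**
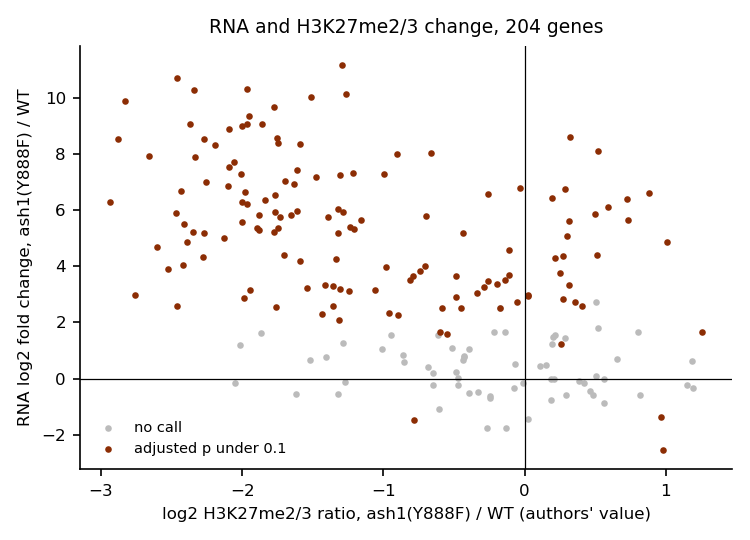
RNA log2 fold change of ash1(Y888F) over WT (vertical) against the authors' log2 ratio of H3K27me2/3 coverage, ash1(Y888F) over WT (horizontal), for 204 ASH1-marked genes with both values. Nearly all called genes lie above 0 on the vertical axis, at ratios from -2.94 to 1.26.

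The genes that lost most H3K27me2/3 and rose include a group on linkage group VI between 448720 and 476658. NCU04703 (ratio -2.94) had 55 and 37 counts in ash1(Y888F), against 1 and 0 in WT. NCU04707 (-2.88) had 40 and 51, NCU04706 (-2.83) 104 and 124, and NCU04708 (-2.66) 27 and 32, against 0 in all WT libraries. These neighbours were silent at this depth in WT and detected in each mutant library. Called genes with more of the mark in the mutant were seldom lower: of the 26 with a ratio above 0, 24 were higher and 2 lower. Genes silent in WT could not fall. The 2 were gh10-3, a putative xylanase gene by its family name (68 and 129 counts against 294 and 225; ratio 0.97), and NCU07610 (15 and 17 against 120 and 74; ratio 0.98). Neither was called without the first WT library, and without the second ash1(Y888F) library 4 of the 198 genes with the highest ratios were lower. NCU04947 (ratio 0.88) went the other way, with 226 and 1850 counts against 14 and 7.

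Most listed genes of mating and sexual development rose. Of 17 genes listed, 15 could be tested, and 10 were higher and 1 lower, against 13% and 3.36% over all genes tested. The median log2 fold change was 3.16, against 0.01 over all genes tested. Among the higher genes, ccg-4, mat A-2, mat A-3 and asd-3 had under 10 counts in each WT library. They passed the low-count filter through the mutant, so that the count and the median of the list rest partly on that selection. The pheromone genes and a receptor gene were among the higher genes. ccg-4, which encodes the pheromone precursor of mat A strains, had 1382 and 4840 counts in ash1(Y888F), against 5 and 3 in WT (log2 fold change 9.57 ± 0.82, adjusted p = 0.00318). mfa-1, the pheromone precursor gene of the opposite mating type, had 395 and 240, against 11 and 9 (5.07 ± 0.48, adjusted p = 0.00418). pre-1, the receptor through which mat A strains sense the other type, had 122 and 191, against 19 and 17 (3.16 ± 0.38, adjusted p = 0.00686). Precursor genes of both mating types were thus transcribed in a strain labelled mat A. The second receptor gene, pre-2, had only 12 and 4 counts, against 3 and 1, and was not tested.

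The mat A locus itself rose with them. mat A-1, the master regulator of the mating type, had a log2 fold change of 4.73 ± 0.43 (adjusted p = 0.00368). mat A-2 and mat A-3, which act in the sexual phase, had 46 and 55, and 38 and 88 counts in ash1(Y888F), against 0 and 0, and 0 and 1 in WT. mat A-2 was at least 35.4-fold higher, and mat A-3 had a ratio of 132 with an exact 95% counting interval of 23.3 to 5268. Only mat A-3 of the 3 is in the ASH1-marked list. Later genes followed: poi-2, needed for normal perithecia, had 635 and 267 counts, against 7 and 10 (5.83 ± 0.64), and asd-3, a gene of ascus development, 47 and 57, against 1 and 0. asd-1, another ascus development gene, had 1450 and 5443, against 860 and 553, and tcu-1, a copper transporter gene, 300 and 223, against 115 and 115. The calls of asd-1 (adjusted p = 0.0679) and tcu-1 (0.0573) were lost without either WT library. The exception was sub-1, a transcription factor of sexual development, with 235 and 288 counts against 802 and 582 (-1.35 ± 0.28, adjusted p = 0.0298), a call lost without the first WT library (0 of the list then lower).

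RNA silencing genes divided by pathway. Of 10 listed, 4 rose, against 13% over all genes tested, and none fell (0 at an unadjusted p under 0.05 and 0 by DESeq2). Each of the 4 had under 10 counts in both WT libraries and passed the low-count filter through the mutant. Their number therefore rests on that selection and is not a like comparison with the 13%. All 4 belong to meiotic silencing by unpaired DNA, which in the sexual cycle silences genes without a pairing partner. sms-2, its Argonaute, had 2034 and 2342 counts in ash1(Y888F), against 6 and 3 in WT (log2 fold change 8.95 ± 0.44, adjusted p = 0.00184). sad-1, its RNA-dependent RNA polymerase, had 40 and 109, against 2 and 3 (4.87 ± 0.70, adjusted p = 0.0104). sad-2, which tethers SAD-1, had 59 and 93, against 0 and 0, at least 53.2-fold higher, and sad-3, a helicase, 22 and 42, against 1 and 0. All 4 carry the ASH1 mark, and all 4 calls held without any 1 library. The list has 5 ASH1-marked genes, of which 5 were tested and 4 called. Vegetative counterparts of the meiotic silencing genes gave no call. The polymerase gene qde-1 of quelling had 157 and 193 counts, against 120 and 168, and the Argonaute gene qde-2 had 1150 and 2012, against 1710 and 2051. Dicer genes dcl-1 (185 and 246 against 171 and 127) and dcl-2 (111 and 209 against 100 and 113), which both pathways can use, had no call.

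**Figure D5:**
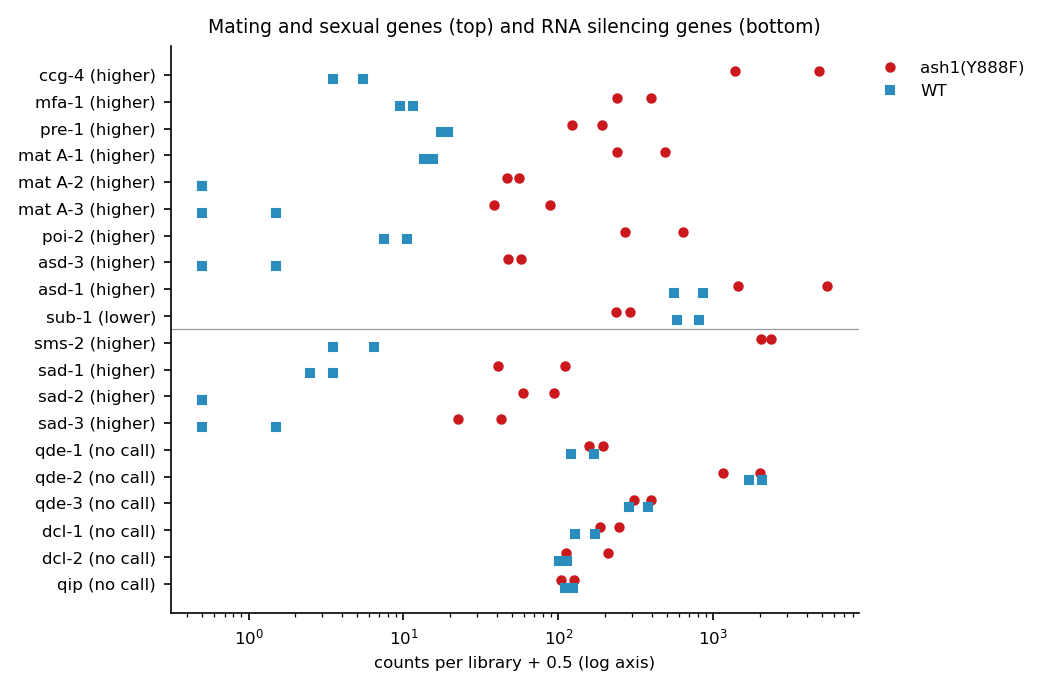
Counts per library plus 0.5 (log axis) for 10 called genes of mating and sexual development and 10 RNA silencing genes, with ash1(Y888F) libraries as circles and WT libraries as squares and the call beside each name. The meiotic silencing genes sms-2, sad-1, sad-2 and sad-3 stand apart between strains, whereas the qde genes, dcl-1, dcl-2 and qip do not have a call.

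Pigment genes of the perithecium, chosen after their values were seen, also rose. per-1, needed for the dark colour of perithecia, had 129 and 129 counts in ash1(Y888F), against 3 and 1 in WT (log2 fold change 6.0 ± 0.56). tnr-1, a reductase gene of melanin synthesis by its name, had 49 and 55, against 10 and 7 (2.66 ± 0.46), a call lost without the second WT library (adjusted p = 0.0171 with all libraries). Both carry the ASH1 mark.

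Among glycoside hydrolases (gh genes), which break down and remodel polysaccharides, 20 of 79 were higher and 4 lower. Of the 79, 65 were tested, and over all genes tested 13% were higher and 3.36% lower. The median over the 65 tested was 0.54 on the log2 scale, against 0.01 over all genes tested, and 15 of the 20 are ASH1-marked. The family has 35 marked members, of which 27 were tested. So 15 of 27 were higher, against 58.4% of all marked genes tested. Over the members tested the median was 2.46 for marked and 0.33 for unmarked ones. Some, such as gh3-4 and gh18-1, passed the low-count filter through the mutant. The smallest p-values were those of gh18-8, a chitinase-family gene with 188 and 769 counts in ash1(Y888F) and 9 and 5 in WT (6.08 ± 0.80), gh3-4, with 30 and 72 against 1 and 1, and gh18-1, with 30 and 35 against 0 and 1. gh18-9 had 319 and 801, against 92 and 89 (2.66 ± 0.42). The cellulase- and xylanase-family genes gh7-3 (11 and 16 against 0 and 0) and gh10-1 (64 and 15 against 0 and 0) became detectable. So did cdh-2 (40 and 33 against 0 and 0), which neighbours gh10-1 by locus number. Without the second WT library 13 of the family were higher. The 4 lower members were gh10-3, gh18-3, gh47-3 and gh61-2, of which none was called without the first WT library, and only gh10-3 without the second WT or the second ash1(Y888F) library. Counted separately, chitinases (gh18 and chit genes) had 3 higher and 1 lower of 10 listed.

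Regulators and transporters of plant cell wall use were called less firmly. Of 9 listed, 4 were higher, against 13% over all genes tested, and none lower (0 at an unadjusted p under 0.05 and 0 by DESeq2). All 4 are ASH1-marked. Of these, cdt-2 and clr-2 had under 10 counts in each WT library and passed the low-count filter through the mutant. cdh-1, a cellobiose dehydrogenase, had 113 and 54 counts in ash1(Y888F), against 23 and 19 in WT (log2 fold change 2.09 ± 0.55). cdt-2, a cellodextrin transporter, had 13 and 19, against 4 and 4. Of the 2 transcription factors, clr-2 had 16 and 21, against 6 and 5, and xlr-1 48 and 137, against 25 and 27. Their adjusted p-values were between 0.0648 and 0.0827, and 0 of the 4 calls were left without either WT library. Without the second ash1(Y888F) library 1 was left, that of cdh-1. DESeq2 called 2 of the list. cre-1, the carbon catabolite repressor, had 3275 and 2800 counts, against 3474 and 2640. Abundant secreted enzymes of simpler carbohydrates rose: inv, invertase, had 7419 and 13632 counts, against 1633 and 1721 (2.70 ± 0.39), and gla-1, glucoamylase, 1080 and 943, against 347 and 461 (1.42 ± 0.27). The inv call was lost without the first WT library, and that of gla-1 without either.

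Of 62 kinase genes listed (stk and prk symbols) 60 were tested, and 9 were higher and 1 lower, which is near the 13% and 3.36% over all genes tested. Of the 9, 8 are ASH1-marked. The other marked kinases, stk-21 (9 and 24 counts in ash1(Y888F) against 2 and 7 in WT) and stk-41 (2 and 11 against 0 and 0), were too low to be tested. stk-56 (both marks; H3K27me2/3 ratio -2.26) had 128 and 147 counts in ash1(Y888F), against 1 and 1 in WT, a ratio of 144 with an exact 95% counting interval of 39.6 to 1198. stk-53 had 382 and 892, against 9 and 7 (6.33 ± 0.51), and stk-44 135 and 168, against 10 and 11 (3.90 ± 0.37). stk-35 and stk-36, close together on linkage group III with ratios of -2.60 and -2.42, had 60 and 68 against 3 and 2, and 412 and 313 against 39 and 6. The 1 lower kinase, stk-24 (267 and 307 against 491 and 510), was not called without either WT library or without the second ash1(Y888F) library, while without the first ash1(Y888F) library 4 kinases were lower.

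In a list of 19 nutrient genes, 5 were higher, against 13% over all genes tested, and none lower (0 at an unadjusted p under 0.05 and 0 by DESeq2). The other 14 had no call, and the median log2 fold change of the list was 0.26. pho-2, alkaline phosphatase, had 293 and 255 counts in ash1(Y888F), against 46 and 69 in WT (log2 fold change 2.34 ± 0.33). ars-1, arylsulfatase, had 159 and 115, against 19 and 31 (2.55 ± 0.43), and pho-5, a phosphate permease, 73 and 87, against 7 and 17 (2.81 ± 0.50). pho-3, a phosphatase, and gdh-1, a glutamate dehydrogenase, were the others. Their regulators had no call: nuc-1 had 476 and 860 counts, against 576 and 612, and cys-3 3717 and 3771, against 3131 and 3468. Without the second WT library 3 of the 5 were called. In the quinic acid cluster only qa-2 rose (50 and 65 against 11 and 8), a call lost without the second WT library.

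Of 17 conidiation genes listed, 16 were tested and 3 were higher and 2 lower, against 13% and 3.36% over all genes tested. With so few genes the shares were not compared. ccg-1 had 2762 and 8550 counts in ash1(Y888F), against 683 and 299 in WT (3.52 ± 0.67, adjusted p = 0.0226). con-6 had 456 and 92, against 42 and 38, and con-10 63 and 68, against 18 and 2. These 2 calls were weak, with adjusted p of 0.0766 and 0.0925, and were lost without the first and the second WT library, in that order. Without the first ash1(Y888F) library 5 conidiation genes were higher, as by DESeq2. eas, the hydrophobin that makes conidia shed water, fell, with 76 and 82 counts against 338 and 454 (-2.24 ± 0.27, adjusted p = 0.00686), and ccg-13 had 1135 and 922, against 3759 and 2660 (-1.57 ± 0.35), a call lost without the first WT library. fl, the regulator of conidial development, had 167 and 155, against 185 and 142, without a call.

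Light-related genes had a negative median but no firm calls. Of 17 genes of light sensing, the clock and carotenoid synthesis, 1 was higher and 3 lower, against 13% and 3.36% over all genes tested. The median of the list was -0.93 on the log2 scale. cry, a cryptochrome, had 505 and 87 counts in ash1(Y888F), against 2907 and 2140 in WT (-2.96 ± 0.83, adjusted p = 0.0807). al-2, phytoene synthase, had 887 and 416, against 3114 and 1745 (-1.81 ± 0.53, adjusted p = 0.0898), and wc-1, the blue light receptor, 545 and 446, against 1152 and 935 (-1.0 ± 0.30, adjusted p = 0.0924). Without the first WT library none of the 3 was called, and wc-1 also lost its call without the second WT or the second ash1(Y888F) library. Without the first ash1(Y888F) library 9 of the list were lower, and DESeq2 called 6. The parent library had 772 counts of cry and 733 of al-2, and with it added to WT the calls of cry, al-2 and wc-1 were lost (adjusted p of 0.142, 0.276 and 0.493). frq, the clock gene, had 985 and 394, against 674 and 469, with overlapping groups. phy-2, a phytochrome gene, was the higher one (49 and 53 against 9 and 11), a call lost without the first WT library. The light given to each culture is not stated in the sources used here.

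Few genes of the heterochromatin and PRC2 lists were called. rid-1, a DNA methyltransferase homolog that repeat-induced point mutation needs in the sexual cycle, was the 1 gene called among 13 of constitutive heterochromatin, with 42 and 92 counts in ash1(Y888F), against 9 and 13 in WT (log2 fold change 2.64 ± 0.52), a call lost without the first WT library. dim-2, the DNA methyltransferase of vegetative cells, had 305 and 354, against 296 and 385. set-7, the H3K27 methyltransferase, had 237 and 326 counts, against 176 and 194 (0.67 ± 0.25, adjusted p = 0.173), and was called higher without the first ash1(Y888F) library. In the annotation used it was the only gene of the PRC2 list with a matching symbol.

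No gene was called by edgeR in 15 lists with 178 members, which cover H3K36 methylation, PRC2, cell fusion and MAP kinases, heterokaryon incompatibility, cytoplasmic ribosomal proteins, respiratory complex I, ATP synthase, histones, DNA repair, the proteasome, peroxisomes, the vacuolar ATPase, the COP9 signalosome, and vitamin and adenine synthesis. At an unadjusted p under 0.05, 1 of these genes was higher and 3 lower, and DESeq2 called 0. Only 4 of the 178 are ASH1-marked. The 7 ribosomal protein genes with a crp symbol summed to 10660 and 6146 CPM in ash1(Y888F), against 11548 and 13153 CPM in WT, so that the second mutant library stood lower than the other 3, and without the first mutant library all 7 were called lower. Without that library 5 of the 15 vitamin genes were lower too, and without the second mutant library 3 were higher. Among 49 amino acid synthesis genes, met-7 was the only call (517 and 630 counts against 1122 and 1192), lost without either WT library, whereas without the first ash1(Y888F) library 12 were lower. In the lists of hyphal growth and of heat and oxidative stress, gel-1, a cell wall glucanosyltransferase gene, rose (151 and 265 against 32 and 29, log2 fold change 2.81 ± 0.37), cat-4, a catalase gene, had 89 and 74 against 31 and 33, and cot-1, a kinase of hyphal tip growth, 1144 and 1345 against 2221 and 2645. The calls of cat-4 and cot-1 were lost without either WT library, that of cat-4 also without the first ash1(Y888F) library. Single weak calls, lost without the second WT library, were those of acw-10, a cell wall protein gene (257 and 159 against 453 and 657), and pks-3, a polyketide synthase gene (48 and 17 against 120 and 206).

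Apart from inv, the most abundant genes called higher were NCU04342 (11182 and 12285 counts in ash1(Y888F), against 3703 and 4282 in WT), NCU08137 (6530 and 6036 against 3212 and 2488), NCU07232 and cel-2, a fatty acid synthase subunit. cel-2 had 5975 and 4368 counts, against 2219 and 2696, and cel-1, the other subunit gene and its neighbour by locus number, 5344 and 3372, against 1679 and 1908. The pair moved alike, with log2 fold changes of 1.17 ± 0.35 and 1.38 ± 0.37. The parent library had 4576 counts of cel-2, and the set-2 deletion strain 5263 and 3877. With the parent library added to WT both calls were lost (edgeR adjusted p of 0.130 for cel-2 and 0.148 for cel-1). NCU07232 (V, 6162382 to 6164419, H3K27me2/3 only) had 2791 and 12591 counts, against 172 and 43 (6.13 ± 1.04, adjusted p = 0.0160). Of these 5 calls with cel-1, that of NCU07232 held without any 1 library. The others were lost without either WT library.

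Decreases were fewer and smaller, with a handful of large ones. NCU08378 (I, 5557665 to 5562248, neither mark) had 4 and 1 counts in ash1(Y888F), against 3020 and 1870 in WT (log2 fold change -9.80 ± 0.66, adjusted p = 0.00205). It also varied outside the mutant, with 65 counts in the parent library and 2354 and 3162 in the set-2 deletion strain. NCU00995 (I, 6456247 to 6457409, neither mark) had 50 and 8, against 3340 and 3930 (-6.83 ± 0.88, adjusted p = 0.00781). Here the parent library had 2929 counts, so that only the mutant was low. NCU05842 (VII, 4021777 to 4024008, ASH1 mark only) had 28 and 7, against 233 and 391 (-4.02 ± 0.66). NCU10040 (IV, 5939000 to 5940994, H3K27me2/3 only), the most abundant of all called genes, had 2262 and 6364, against 29437 and 82228 (-3.64 ± 0.78). NCU08720 (633 and 494 against 4912 and 5450), mig-4 (233 and 158 against 1488 and 2075), NCU05134 (112 and 64 against 508 and 840) and NCU06063 (128 and 216 against 878 and 1546) fell by 2.75 to 3.11 on the log2 scale. Further abundant genes that fell were NCU07117 (694 and 2141 against 9593 and 8603), NCU00399 (2852 and 3988 against 12539 and 10076) and NCU10069 (1719 and 2295 against 5278 and 5140). NCU07117 also varied outside the mutant, with 2918 counts in the parent library and 441 and 453 in the set-2 deletion strain. The calls of NCU00399 and NCU10069 were lost without either WT library.

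The largest decrease was a pair of overlapping genes at 0. NCU09968 (VI, 309546 to 315476, neither mark) had 0 and 0 counts in ash1(Y888F), against 591 and 902 in WT, at least 474-fold lower with a floor of 3 counts over the mutant group. NCU09969 (VI, 314113 to 320071), which overlaps its end, had 0 and 0, against 35 and 25, at least 19.0-fold lower. These are the only 2 genes with 0 counts in the mutant and at least 10 in each WT library. Both were transcribed in the parent library (714 and 41 counts) and in both libraries of the set-2 deletion strain (414 and 439, and 28 and 31). The flanking genes were transcribed in the mutant. On one side stk-49 had 186 and 263 counts, against 283 and 310, and NCU07063 had 523 and 533, against 146 and 233. On the other NCU07061 had 124 and 268, against 255 and 159, and NCU07060 had 239 and 212, against 227 and 252. Whether the genes are present in the DNA of N4878 was not tested.

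The least repeatable of the called genes show the limit that 2 mutant libraries set. NCU08095 (both marks; H3K27me2/3 ratio 0.72) had 42 and 904 counts in ash1(Y888F), against 6 and 5 in WT. NCU04963 (ASH1 mark only) had 171 and 3212, against 92 and 85, NCU05126 (neither mark) 141 and 1737, against 48 and 3, and app (ASH1 mark only) 174 and 25, against 5 and 6. In each, as in NCU08818, both mutant libraries were above both WT libraries, but the size of the difference rests on 1 of them. The calls of NCU04963 and app were lost without the first WT library, and that of NCU05126 without the second ash1(Y888F) library. Among all 1326 called genes, 36 had mutant libraries more than 4-fold apart and 4 more than 8-fold.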

How the data were processed

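Per the labels and methods, the authors cleaned single-end stranded poly-A+ reads with Stacks, mapped them with TopHat2, and assigned them to genes by strand with HTSeq after SAMtools sorting (versions not given in the sources used here). Sequencers with different read lengths were in use, and which library came from which is not given. The authors deposited raw counts. HTSeq's summary lines were left out of library sizes. The authors' ChIP-seq gene lists carry a score of 0 throughout and were used as lists, with NC12 positions counted from 1; their H3K27me2/3 values are log2 ratios deposited per gene (Bowtie2, deepTools). Their tables of changed genes (fold changes and p-values) and a table of 20 columns without names were not used.

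Here edgeR 4.0.16 in R 4.3.3 (quasi-likelihood test, TMM factors, genes kept by filterByExpr at a minimum of 10 counts, 2 libraries against 2) gave adjusted p-values, called under 0.1. Standard errors were derived from the F statistic and are approximate. P-values measure the spread between these libraries only. A floor of 3 counts over a group gives lower bounds; for 1 to 3 counts exact 95% intervals are given, which cover counting error only. CPM use TMM-scaled library sizes. At this depth 3 counts are 0.370 to 0.458 CPM. Alternatives were DESeq2 1.42.0, RLE factors, no filter, a threshold of 0.05, each library left out, a replicate block, all strains in 1 fit, and the parent library added to WT. The scripts were tested on simulated data. Python 3.11.15 (pandas 2.3.3, scipy 1.17.1) made tables and figures.

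Symbols are those of RefSeq (NC12), which names 1118 of 9730 genes. Members and lists were chosen with earlier results of these data known; lists of tca, pex, vma, tim/tom/tob, gpr and csn genes were added after other lists' values were seen. Genes named are the strain checks, the 15 largest increases and 10 largest decreases (called, mean log2 CPM at least 3, groups apart), the 5 most abundant in each direction, the 5 most abundant of those at 0 in WT, the 3 smallest p per list and 2 per chromatin class, and the 5 least repeatable. Other genes were named after their values were seen.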

Additional observations from a re-analysis of the deposited data

How the results depend on the processing

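The number of higher genes stayed within 1.5 times of 1053 under every alternative (756 to 1314), and RLE factors and DESeq2 gave 1056 and 1161. The number of lower genes did not: it was 273, but 124 at an adjusted p under 0.05, 429 with all strains in 1 fit and 87 to 918 with a library left out. Genes higher with both marks numbered 142 and with the ASH1 mark alone 539, within 1.5 times under every alternative. Lower genes with both marks numbered 2 to 9 with a library left out, and those with the ASH1 mark alone 4 to 19, and 7 at the stricter threshold. Of the 198 genes with the highest H3K27me2/3 ratios DESeq2 called 19 higher, against 12. Of 165 called genes with a symbol or named by rule, none changed direction. With the parent library added to WT, 16 of them lost their call. Besides cry, al-2, wc-1, cel-1 and cel-2, these include cat-4, xlr-1, sub-1 and tim14. The replicate number as a block gave 979 higher and 209 lower genes. Same-numbered libraries did not deviate together (correlation -0.20 across genes). With 2 libraries a side this cannot decide whether libraries were paired. Crossing the numbers, chosen after seeing the data, gave 1312 and 621. With 2 libraries a side, small changes of low genes are beyond this depth, and WT and mutant share no date.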

Other observations

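Lists and single genes of mitochondrial proteins, some chosen after values were seen, gave few and weak calls by edgeR. None of 29 complex I and 2 ATP synthase genes was called (edgeR; 0 at an unadjusted p under 0.05 and 0 by DESeq2). Of 21 genes for protein import and sorting (tim, tom and tob symbols), 4 were lower and none higher in ash1(Y888F) by edgeR. At an unadjusted edgeR p under 0.05, 10 were lower and 0 higher, and DESeq2 called 7 lower and 0 higher. Over all genes tested 3.36% were lower by edgeR. The median log2 fold change of the list was -0.78, against 0.01 over all genes tested. tim44, of the import motor, had 702 and 560 counts in ash1(Y888F), against 1111 and 1717 in WT, tim14 463 and 676, against 944 and 1191, tim54 236 and 218, against 403 and 649, and tob38, of outer membrane sorting, 76 and 122, against 201 and 231. The 4 adjusted p-values lay between 0.0605 and 0.0985. Without the first WT library 1 gene of the list was called lower, without the second 0, without the second ash1(Y888F) library 2 and without the first 12. Of 16 tca genes, 2 were lower, tca-16 (1224 and 1034 counts against 2858 and 2998) and tca-5 (3029 and 3395 against 5804 and 8876), and none was without either WT library, while without the first ash1(Y888F) library 6 were. The RNA splicing cofactor gene cyt-19 had 646 and 413 counts, against 1090 and 1898, and lost its call without the second WT or the second ash1(Y888F) library.

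Sirtuin genes, named nst, which encode NAD-dependent deacetylases, were called in different directions. nst-7 (both marks; H3K27me2/3 ratio 0.02) had 112 and 174 counts in ash1(Y888F), against 20 and 17 in WT (2.99 ± 0.39 on the log2 scale, edgeR adjusted p = 0.00798). nst-4 (169 and 158 against 458 and 425) and nst-5 (243 and 232 against 618 and 495), both without marks, were lower, with log2 fold changes of -1.36 ± 0.25 and -1.16 ± 0.27, and both calls were lost without the first WT library. Of 6 genes for G protein-coupled receptors (gpr), gpr-1 was higher (20 and 43 counts in ash1(Y888F) against 3 and 3 in WT) and gpr-5 lower, the call of gpr-5 being lost without either WT library or the second ash1(Y888F) library.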
